A study of Arabidopsis thaliana with 8 samples.

Results

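The genes described here encode proteins of the cytosolic ribosome of Arabidopsis thaliana. They are 41 named nuclear genes, chosen by name from the 34133 genes of the deposited expression table and taken from 21 protein families. Of these genes, 26 encode proteins of the large subunit, 3 proteins of the stalk that rises from it and 12 proteins of the small subunit. In 16 of the families 2 or more paralogs were listed, and 5 families had a single listed gene. Ribosomes are built in the nucleolus from ribosomal RNAs and a set of proteins that is needed in near equal numbers, so the genes for these proteins are known for high and parallel expression in growing tissue. In plants each protein is encoded by a small family of similar genes, and the paralogs of a family often differ in level and in the phenotype of their mutants. Endosperm, the nourishing tissue of the seed, grows first as a syncytium and then forms cell walls, and its protein synthesis supports both growth and the later storage of reserves.

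At 6 days after pollination (DAP), endosperm was cut by laser capture microdissection from seeds of 4 crosses between the wild type Col-0 and ein2-5, a mutant of the gene EIN2, whose protein relays the ethylene signal. In the labels' spelling, Col-0 x Col-0 is called the wild-type cross here, and its counterpart ein2-5 x ein2-5 the mutant cross, each with 2 libraries. The reciprocal pairings are ein2-5 x Col-0, called the mutant-mother hybrid, and its reverse Col-0 x ein2-5, called the mutant-father hybrid, again with 2 libraries each, which makes 8 in all. These names assume that the mother is written first, on which the labels are silent. All plants were grown under long days, and the groups differ in which parents carried ein2-5. How many seeds or plants were pooled is not given in the sources used here. The labels do not state whether the replicates came from separate plants, and the p-values cover no more than the spread among these samples, which may be technical. Values are FPKM, fragments mapped to a transcript divided by its length and by the mapped fragments of the library, as the authors computed them. In each list of values below, replicate 1 of a cross is given first and replicate 2 after it. All 41 genes passed the filter of at least 1 FPKM in at least 2 libraries, as did 19719 genes in the whole table.

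EIN2 itself was at 35.7 and 54.8 FPKM in the wild-type cross, 31.4 and 50.03 in the mutant-father hybrid, 26.2 and 22.2 in the mutant-mother hybrid, and 19.7 and 23.7 in the mutant cross. Whether the part of EIN2 altered in ein2-5 is covered cannot be read from a value for the whole gene. The tissue label was checked against marker lists chosen with earlier results of these data known. All 11 endosperm markers were above 0 in at least 1 library. Among them PHE1, a type I MADS-box gene of early endosperm, ranged from 94.8 to 287 FPKM, while IKU2, singled out after its values were seen, was listed at 0 in 5 of the 8 libraries. HDG3 and SUC5, the 2 most abundant endosperm markers, averaged 276 and 251 FPKM. Of 9 endosperm markers tested, 7 were higher in the mutant cross than in the wild-type cross, with a median log2 change of 0.74, 5 at an unadjusted limma p under 0.05 and 0 at an adjusted p under 0.05. Genes listed as markers of neighbouring tissues were present too. Whether each of them is confined to its tissue and absent from endosperm was not tested, so their sums do not measure carry-over. The summed level of 13 seed coat markers was 609 to 691 FPKM in the wild-type cross, 669 to 797 in the mutant-father hybrid, 514 to 947 in the mutant-mother hybrid and 978 to 1447 in the mutant cross, led by TT4, BAN and LDOX of tannin synthesis with means of 259, 146 and 138 FPKM. Of these 13, 12 were higher in the mutant cross, with a median of 0.96, 10 at an unadjusted limma p under 0.05 and 0 at an adjusted p under 0.05. For 8 embryo markers the sums were 564 to 677, 599 to 631, 676 to 695 and 542 to 556 FPKM in the same order, led by LEC1, PDF1 and FUS3 with means of 408, 115 and 43.8 FPKM. WOX2, again singled out after its values were seen, was at 0 in both wild-type-cross libraries. Of 7 embryo markers tested, 2 were higher and 5 lower in the mutant cross, with a median of -0.21. At an unadjusted limma p under 0.05 there was 1, which was higher, and at an adjusted p under 0.05 there were 0. Over all genes tested, 61.6% were higher in the mutant cross than in the wild-type cross, with a median of 0.12. At an unadjusted limma p under 0.05, 8.44% of all genes were higher and 2.13% lower, and 0.0101% had an adjusted p under 0.05. In material of mixed cells a lower value can come from fewer cells of a type or from less RNA per cell, and these cannot be told apart.

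Library depth was estimated from the steps between the lowest FPKM values, since the values used here carry no counts. Of 1593 such values, scaled by the estimated depths, 95.9% were within 0.06 of a whole multiple of their gene's smallest value. Chance gives 12%, and the depths were fitted on low values of the same genes. Relative to the shallowest library, replicate 1 of the wild-type cross, the libraries were 1 and 2.61 in the wild-type cross, 1.87 and 2.12 in the mutant-father hybrid, 1.82 and 1.66 in the mutant-mother hybrid, and 1.89 and 3.02 in the mutant cross. This corresponds to an estimated 650671 to 1964763 fragments per library. The listed genes drew an estimated 43 to 1329 fragments each per library, lowest for RPL3B and highest for RPL3A, and depth sets the precision of the lowest most. Whether counting used strand is not given in the sources used here. Because FPKM is itself divided by mapped fragments, a relation between FPKM and depth shares that denominator.

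Ribosomal protein transcripts were among the most abundant in this endosperm. The mean over the 8 libraries had a median of 489 FPKM over the 41 genes, against 17.1 FPKM over all genes tested. The median listed gene lay at the 98.8th percentile of tested genes, 16 genes lay in the top 1%, and the lowest lay at the 79.4th. Together they made up 1.49% of all FPKM in replicate 2 of the mutant cross and 2.28% in replicate 1 of the wild-type cross. The levels fell into a large upper group and a small lower one. There were 35 genes with a mean between 233 and 702 FPKM and 6 with a mean between 61.3 and 144 FPKM, and 200 FPKM was chosen as the divide after the values were seen. The 6 minor genes were RPL3B, RPSAb, AT2G40010 of the P0 family, AT3G13580 of the L7 family, RPL16A and RPL10B, each from a different family in which another paralog was abundant.

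**Figure D1:**
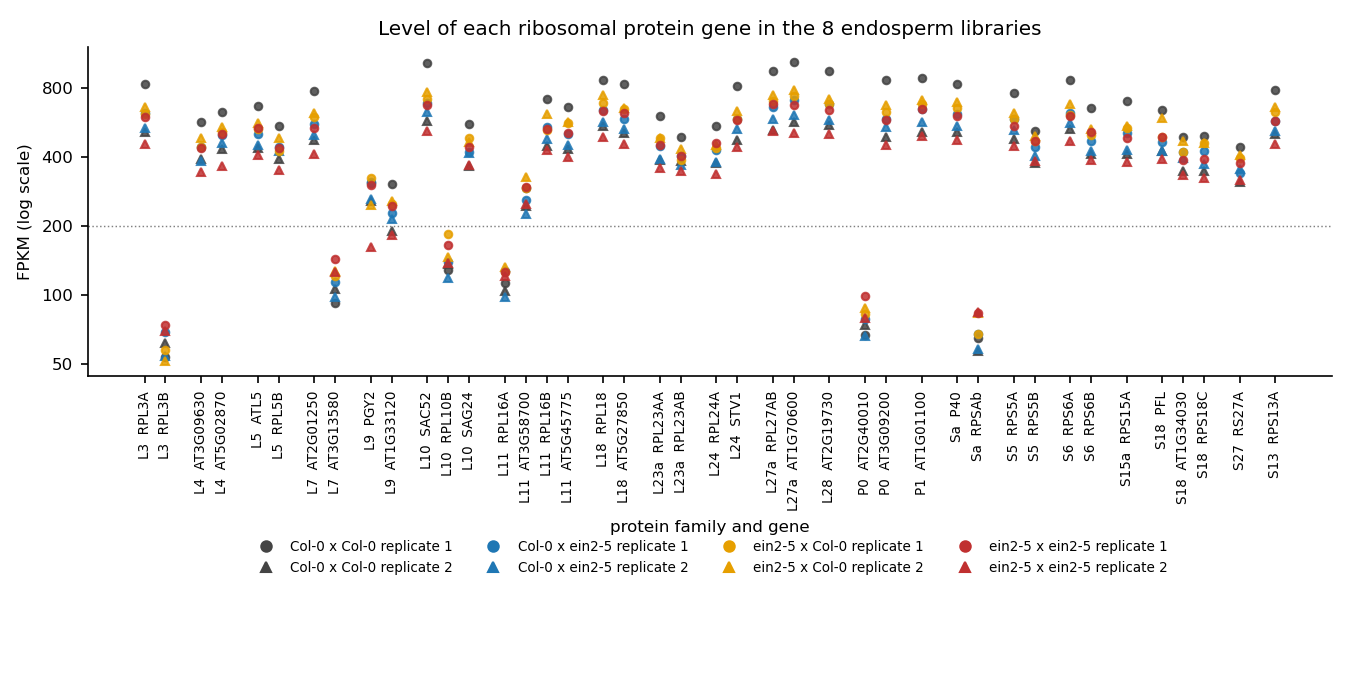
FPKM of each of the 41 genes (log axis) in the 8 libraries, grouped by protein family, with colours for the 4 crosses, circles for replicate 1, triangles for replicate 2 and a dotted line at 200 FPKM. The 6 minor genes sit below the line in all libraries, and 33 of the 35 abundant genes are highest in replicate 1 of the wild-type cross.

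The replicates of a cross differed in these genes, and the difference moved with depth. Of the 35 abundant genes, 33 were highest in the shallowest library, replicate 1 of the wild-type cross, and 31 were lowest in the deepest, replicate 2 of the mutant cross. The median log2 difference between replicates 1 and 2 over the 41 genes was 0.61 in the wild-type cross, 0.17 in the mutant-father hybrid, -0.08 in the mutant-mother hybrid and 0.35 in the mutant cross. In each of the 4 crosses the shallower replicate was thus the higher one. The median deviation of the abundant genes from their own 8-library means was 0.43 (log2) in replicate 1 of the wild-type cross and -0.34 in replicate 2 of the mutant cross. Across the 8 libraries this median had a Pearson r of -0.98 and a Spearman rho of -0.98 with log2 depth. Without the shallowest and the deepest library, the 2 farthest from the median depth, r was -0.96 over 6 libraries. These correlations are descriptions, since the genes were chosen with earlier results known and share libraries.

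Estimated fragments are the FPKM values multiplied by transcript length and estimated depth, so they restate the pattern on another scale and add no separate evidence. From replicate 1 of the wild-type cross to replicate 2 of the mutant cross, depth rose 3.02-fold. Fragments of the abundant genes rose by a median of 1.77-fold, with a range of 1.48 to 2.57, while those of the minor genes rose by 3.76-fold, with a range of 3.24 to 4.10. All 11393 genes above 10 FPKM in the shallower of the 2 libraries rose by a median of 3.43-fold.

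The pattern belonged to abundant transcripts at large. Among 170 tested genes for other cytosolic ribosomal proteins, the median deviation was 0.39 in replicate 1 of the wild-type cross and -0.30 in replicate 2 of the mutant cross. Among 478 further genes at 300 FPKM or more it was 0.32 and -0.26, and r with log2 depth was -0.99. Genes at 10 to 100 FPKM ran the other way, at -0.17 and 0.14. The 6 minor listed genes had an r of 0.16 over the 8 libraries, and of -0.62 over 6 libraries without those 2. Their median deviation was -0.17 and 0.09 in those 2 libraries. The medians and counts of the listed genes are therefore given below for other scalings, without single libraries or with depth as a covariate as well. The part of depth in these differences was not tested beyond those values.

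**Figure D2:**
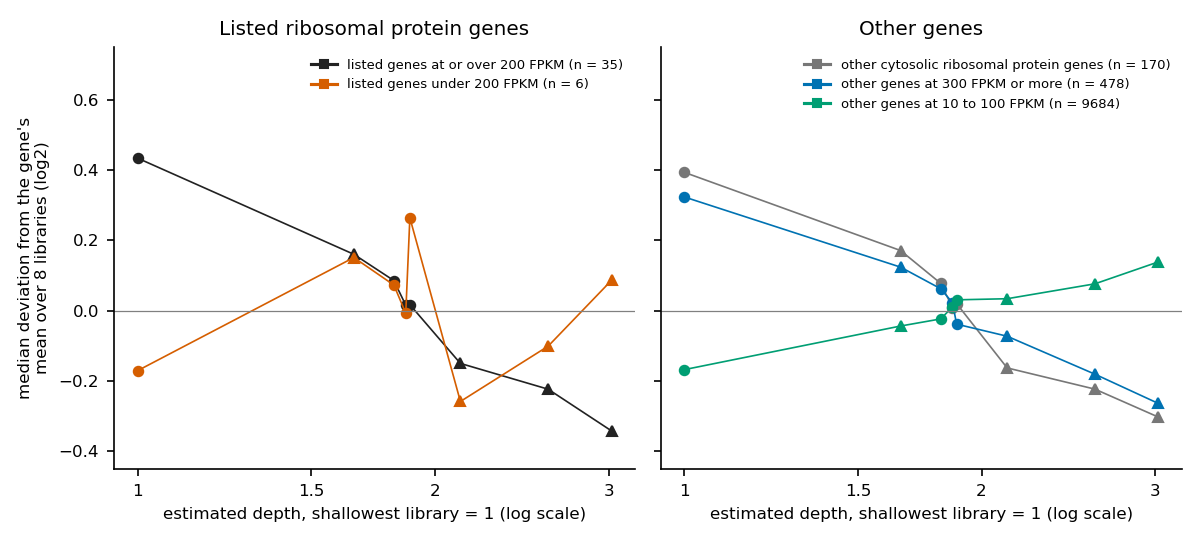
Median deviation of gene groups from each gene's own mean over the 8 libraries (log2) against estimated depth (log axis, shallowest library = 1), with a point for each library (circle for replicate 1, triangle for replicate 2) and lines joining libraries in order of depth. The 35 abundant listed genes fall from 0.43 to -0.34 as depth rises, like 170 other ribosomal protein genes. The 6 minor listed genes have an r of 0.16 over all 8 libraries and of -0.62 without the shallowest and the deepest.

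The large subunit families are described first. L3 lies close to the peptidyl transferase centre, where peptide bonds form. RPL3A measured 834 and 510.4 FPKM in the wild-type cross, 622 and 535 in the mutant-father hybrid, 616 and 656 in the mutant-mother hybrid, and 594 and 455 in the mutant cross. RPL3B measured 53.4 and 61.5 FPKM in the wild-type cross, 68.9 and 54.2 in the mutant-father hybrid, 57.3 and 51.3 in the mutant-mother hybrid, and 74.0 and 69.8 in the mutant cross. RPL3A was highest in the shallowest library and RPL3B was highest in the mutant cross, whose 2 libraries both lay above both wild-type-cross libraries. RPL3A held a mean of 90.5% of the family's FPKM and RPL3B 9.51%. The 150 bases upstream of both genes are shown because this is the family with the widest gap between paralogs. Capitals mark the site II elements, TGGGCC or TGGGCT on either strand, which are known from promoters of ribosomal protein and cell cycle genes in Arabidopsis.
RPL3A: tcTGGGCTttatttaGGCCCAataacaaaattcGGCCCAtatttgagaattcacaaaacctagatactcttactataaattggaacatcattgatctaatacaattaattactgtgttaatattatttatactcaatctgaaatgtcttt
RPL3B: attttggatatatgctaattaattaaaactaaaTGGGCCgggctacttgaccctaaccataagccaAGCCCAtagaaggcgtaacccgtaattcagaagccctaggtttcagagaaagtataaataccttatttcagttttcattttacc
They were read 5′ to 3′ from the RefSeq TAIR10.1 assembly, chr1:16266403-16266552 on the plus strand for RPL3A and chr1:22723153-22723302 on the minus strand for RPL3B, and each ends at the base before the annotated gene start. Both stretches hold such elements, 3 in RPL3A and 2 in RPL3B, although RPL3A was 9.63-fold above RPL3B in the mean ratio within a library.

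L4 reaches into the tunnel through which the new peptide leaves. AT5G02870 measured 628 and 434 FPKM in the wild-type cross, 499 and 461 in the mutant-father hybrid, 514 and 542 in the mutant-mother hybrid, and 501 and 365 in the mutant cross. AT3G09630 measured 566 and 390.2 FPKM in the wild-type cross, 439.6 and 384 in the mutant-father hybrid, 439 and 484 in the mutant-mother hybrid, and 437 and 344 in the mutant cross. The 2 paralogs were close to equal, and both were lowest in replicate 2 of the mutant cross. L5 binds the small ribosomal RNA of the large subunit together with L11. ATL5 measured 664 and 438 FPKM in the wild-type cross, 502 and 450.3 in the mutant-father hybrid, 529 and 561 in the mutant-mother hybrid, and 536 and 407 in the mutant cross. RPL5B measured 547 and 392 FPKM in the wild-type cross, 442 and 423 in the mutant-father hybrid, 422 and 483 in the mutant-mother hybrid, and 439 and 348 in the mutant cross. ATL5 was above RPL5B in all 8 libraries, by 1.17-fold in the mean ratio within a library.

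L7 had an abundant and a minor gene. AT2G01250 measured 777 and 472 FPKM in the wild-type cross, 554 and 499.8 in the mutant-father hybrid, 596 and 618 in the mutant-mother hybrid, and 533 and 410.1 in the mutant cross. AT3G13580 measured 92.5 and 106 FPKM in the wild-type cross, 114 and 97.6 in the mutant-father hybrid, 121 and 127 in the mutant-mother hybrid, and 143 and 126 in the mutant cross. The minor gene was lowest in replicate 1 of the wild-type cross, the library in which its partner was highest. L9 lies near the site where elongation factors bind, and its 2 genes are PGY2, known from mutants that alter leaf polarity, and AT1G33120. PGY2 measured 307 and 256 FPKM in the wild-type cross, 309 and 262 in the mutant-father hybrid, 324 and 246 in the mutant-mother hybrid, and 302 and 161 in the mutant cross. AT1G33120 measured 305 and 189.6 FPKM in the wild-type cross, 227 and 213 in the mutant-father hybrid, 249 and 257 in the mutant-mother hybrid, and 243 and 181 in the mutant cross. PGY2 was the higher in 6 of 8 libraries, and their order changed between replicates of the same cross.

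The L9 genes lie near each other on the same strand of chromosome 1. The bases upstream of them are shown because the 2 stretches share an unbroken run of 122 bases, offset between them. Capitals again mark site II elements.
PGY2: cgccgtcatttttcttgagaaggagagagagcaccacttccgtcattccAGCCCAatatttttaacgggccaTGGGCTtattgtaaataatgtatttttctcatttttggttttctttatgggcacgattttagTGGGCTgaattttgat
AT1G33120: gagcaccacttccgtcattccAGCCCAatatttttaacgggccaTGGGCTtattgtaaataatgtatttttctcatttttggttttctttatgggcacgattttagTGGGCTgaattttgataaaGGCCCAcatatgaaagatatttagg
The stretches are chr1:12023075-12023224 and chr1:12010729-12010878, both on the plus strand of TAIR10.1. The coding sequences were 99.1% identical and shared an unbroken run of 458 nt, so that fragments from this run cannot be assigned to either gene and the split between them is uncertain.

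L10 joins the large subunit late in its maturation, as known from yeast, and SAC52 is one of 3 genes for it. SAC52 measured 1024 and 572 FPKM in the wild-type cross, 686 and 627 in the mutant-father hybrid, 712 and 766 in the mutant-mother hybrid, and 674 and 517 in the mutant cross. RPL10B measured 128 and 137 FPKM in the wild-type cross, 139 and 119 in the mutant-father hybrid, 184 and 146 in the mutant-mother hybrid, and 165 and 138 in the mutant cross. The third gene, SAG24, had a mean of 439 ± 62.6 FPKM (SD over 8 libraries). SAC52 made up 54.1% of the family on average, SAG24 34.4% and RPL10B 11.5%. SAC52 was the second most abundant of the 41 genes by its mean, and its value in replicate 1 of the wild-type cross was exceeded by AT1G70600 alone.

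In this set 4 genes encode L11, the partner of L5, although the annotation names some of them RPL16. RPL16B measured 715 and 444 FPKM in the wild-type cross, 541 and 476 in the mutant-father hybrid, 524 and 614 in the mutant-mother hybrid, and 529 and 428 in the mutant cross. RPL16A measured 112 and 104 FPKM in the wild-type cross, 126 and 97.4 in the mutant-father hybrid, 125 and 132 in the mutant-mother hybrid, and 125 and 121 in the mutant cross. AT3G58700 measured 293 and 243 FPKM in the wild-type cross, 259 and 225 in the mutant-father hybrid, 293 and 327 in the mutant-mother hybrid, and 294 and 249 in the mutant cross. AT5G45775 had a mean of 509.9 ± 84.1 FPKM, close to RPL16B. The family fell into a pair of near equal genes, RPL16B and AT5G45775 at 37.1% and 35.5% of the family, and 2 lower ones at 19.1% and 8.32%. Coding identity followed the same pairs: 91.3% between RPL16B and AT5G45775, 91.1% between AT3G58700 and RPL16A, and 83.6 to 86.0% across the pairs.

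The remaining large subunit families held paralogs of like level. For L18, RPL18 measured 863 and 543 FPKM in the wild-type cross, 641 and 565 in the mutant-father hybrid, 685 and 745 in the mutant-mother hybrid, and 633 and 486 in the mutant cross. AT5G27850 measured 832 and 506 FPKM in the wild-type cross, 584 and 531 in the mutant-father hybrid, 649 and 655 in the mutant-mother hybrid, and 622 and 454 in the mutant cross. The 2 differed by 1.07-fold. L23a lies where the peptide leaves the ribosome, and mutants of RPL23AA, not of RPL23AB, are known for developmental defects. RPL23AA measured 601 and 389 FPKM in the wild-type cross, 444 and 392 in the mutant-father hybrid, 482 and 483 in the mutant-mother hybrid, and 450.1 and 358 in the mutant cross. RPL23AB measured 486 and 383 FPKM in the wild-type cross, 404 and 368 in the mutant-father hybrid, 387 and 431 in the mutant-mother hybrid, and 403 and 348 in the mutant cross. RPL23AA was the higher in 8 of 8 libraries, by 1.11-fold.

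L24 sits at the face between the subunits, and STV1, its gene known from gynoecium mutants, helps translation restart after upstream reading frames. STV1 measured 816 and 471 FPKM in the wild-type cross, 583 and 527 in the mutant-father hybrid, 584 and 636 in the mutant-mother hybrid, and 579.7 and 441 in the mutant cross. RPL24A measured 542 and 377 FPKM in the wild-type cross, 427 and 379.7 in the mutant-father hybrid, 436 and 449 in the mutant-mother hybrid, and 457 and 335 in the mutant cross. STV1 was above RPL24A in every library, and it was the L24 gene with the larger spread. For L27a, AT1G70600 measured 1036 and 566 FPKM in the wild-type cross, 707 and 608 in the mutant-father hybrid, 740.0 and 779 in the mutant-mother hybrid, and 671 and 509 in the mutant cross. RPL27AB measured 948 and 523 FPKM in the wild-type cross, 658 and 583 in the mutant-father hybrid, 697 and 743 in the mutant-mother hybrid, and 678 and 518 in the mutant cross. AT1G70600 had the highest mean of all 41 genes, and RPL27AB passed it in both mutant-cross libraries. L28 had a single listed gene, and AT2G19730 measured 947 and 549 FPKM in the wild-type cross, 679 and 579.8 in the mutant-father hybrid, 682 and 715 in the mutant-mother hybrid, and 642 and 503 in the mutant cross.

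The stalk binds the elongation factors that drive each round of translation, with P0 at its base and P1 as one of the acidic proteins attached to it. AT3G09200 measured 861 and 486 FPKM in the wild-type cross, 583 and 537 in the mutant-father hybrid, 625 and 674 in the mutant-mother hybrid, and 577 and 452 in the mutant cross. AT2G40010 measured 66.7 and 73.6 FPKM in the wild-type cross, 78.5 and 66.0 in the mutant-father hybrid, 82.6 and 87.6 in the mutant-mother hybrid, and 99.0 and 79.5 in the mutant cross. AT2G40010, the minor P0 gene, was highest in replicate 1 of the mutant cross, and both mutant-cross libraries exceeded both wild-type-cross libraries. The only P1 gene listed was abundant: AT1G01100 measured 885 and 513 FPKM in the wild-type cross, 649 and 569 in the mutant-father hybrid, 678 and 709 in the mutant-mother hybrid, and 648 and 492 in the mutant cross.

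In the small subunit, Sa is the plant counterpart of a protein first described in animals as a laminin receptor precursor, and its abundant gene is annotated P40. P40 measured 833 and 512 FPKM in the wild-type cross, 614 and 543 in the mutant-father hybrid, 655 and 694 in the mutant-mother hybrid, and 605 and 471 in the mutant cross. RPSAb measured 64.7 and 56.6 FPKM in the wild-type cross, 67.2 and 57.7 in the mutant-father hybrid, 67.4 and 83.3 in the mutant-mother hybrid, and 83.0 and 84.0 in the mutant cross. RPSAb was 8.60-fold below P40 in the mean ratio within a library, and its 4 highest values were in the libraries with a mutant mother. Its upstream bases are shown beside those of P40 because it is the minor gene with the largest difference between crosses. Capitals mark the telo box, AAACCCTAA on either strand, a second element known from ribosomal protein promoters.
P40: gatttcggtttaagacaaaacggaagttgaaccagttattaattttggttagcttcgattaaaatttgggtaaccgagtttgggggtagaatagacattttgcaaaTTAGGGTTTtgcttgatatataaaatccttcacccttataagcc
RPSAb: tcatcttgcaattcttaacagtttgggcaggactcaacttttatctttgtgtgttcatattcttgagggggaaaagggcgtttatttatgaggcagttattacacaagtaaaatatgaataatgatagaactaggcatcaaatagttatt
The stretches are chr1:27244932-27245081 and chr3:1311130-1311279, both on the minus strand of TAIR10.1. A telo box is present for P40, and neither element is in the letters shown for RPSAb.

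S5 lies where transfer RNA leaves the ribosome. RPS5A is known for strong expression in dividing cells and embryos. RPS5A measured 756 and 479 FPKM in the wild-type cross, 583 and 521 in the mutant-father hybrid, 582 and 620.4 in the mutant-mother hybrid, and 546 and 443 in the mutant cross. RPS5B measured 517 and 376 FPKM in the wild-type cross, 443 and 405 in the mutant-father hybrid, 467 and 494 in the mutant-mother hybrid, and 469 and 382 in the mutant cross. RPS5A was the higher in all 8 libraries, by 1.16 to 1.46-fold. The ratio of this pair is the one that separated libraries by their mother, as given below, and the upstream bases are shown with both elements in capitals.
RPS5A: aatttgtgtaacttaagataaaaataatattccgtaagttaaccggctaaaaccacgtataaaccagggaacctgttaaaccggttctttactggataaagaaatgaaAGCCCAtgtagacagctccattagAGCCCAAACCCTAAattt
RPS5B: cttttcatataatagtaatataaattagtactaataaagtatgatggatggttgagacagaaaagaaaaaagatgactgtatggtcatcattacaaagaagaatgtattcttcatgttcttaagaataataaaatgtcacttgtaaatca
The stretches are chr3:3779546-3779695 and chr2:15649472-15649621, both on the minus strand of TAIR10.1. RPS5A holds 2 site II elements and 1 telo box there, and the telo box overlaps one of the site II elements. No match to either is in the RPS5B stretch.

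S6 is phosphorylated by the S6 kinase of the TOR growth pathway. RPS6A measured 864 and 529.9 FPKM in the wild-type cross, 622 and 563 in the mutant-father hybrid, 607 and 681 in the mutant-mother hybrid, and 603 and 469 in the mutant cross. RPS6B measured 653 and 413 FPKM in the wild-type cross, 468 and 424 in the mutant-father hybrid, 499 and 527 in the mutant-mother hybrid, and 511 and 388 in the mutant cross. RPS6A was above RPS6B in each library, by 1.27-fold in the mean ratio. S18, which contacts transfer RNA, had 3 genes, of which PFL is named for the pointed first leaves of its mutant. PFL measured 642 and 425 FPKM in the wild-type cross, 465 and 426 in the mutant-father hybrid, 486 and 589 in the mutant-mother hybrid, and 489 and 391 in the mutant cross. AT1G34030 measured 489 and 348 FPKM in the wild-type cross, 419 and 396 in the mutant-father hybrid, 420.2 and 469.9 in the mutant-mother hybrid, and 388 and 333 in the mutant cross. RPS18C had a mean of 409 ± 60.1 FPKM, close to AT1G34030, and PFL was the highest of the 3 in every library.

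The other small subunit genes listed had no listed paralog. RPS15A measured 701 and 411 FPKM in the wild-type cross, 506 and 428 in the mutant-father hybrid, 534 and 547 in the mutant-mother hybrid, and 485 and 379 in the mutant cross. RPS13A measured 782 and 502 FPKM in the wild-type cross, 570.2 and 518 in the mutant-father hybrid, 629.9 and 660.1 in the mutant-mother hybrid, and 574 and 453 in the mutant cross. RS27A measured 441 and 311 FPKM in the wild-type cross, 339.9 and 355 in the mutant-father hybrid, 394 and 406 in the mutant-mother hybrid, and 375 and 318 in the mutant cross. Each had its highest value in replicate 1 of the wild-type cross. RS27A, known for a role in transcript decay after DNA damage, was the lowest of these 3, and its lowest library was replicate 2 of the wild-type cross.

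Paralogs were compared within libraries, where scaling between libraries drops out. There were 20 ratios of a paralog to the most abundant member of its family, on the scale of log2(FPKM + 1). In 13 of the 16 families the same gene was on top in all 8 libraries, and the exceptions were L9, L11 and L27a. The 6 minor genes were at least 2-fold below their top paralog in every library, and 13 of the other ratios stayed within 2-fold in every library. AT3G58700 was in between, 1.94-fold below RPL16B on average and 1.72 to 2.43-fold by library.

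The minor genes lay closest to their partners in replicate 2 of the mutant cross and farthest in replicate 1 of the wild-type cross. RPL3B was 15.3-fold below RPL3A in replicate 1 of the wild-type cross and 6.43-fold below in replicate 2 of the mutant cross. RPSAb was 12.7-fold below P40 in the first and 5.55-fold in the second, AT2G40010 was 12.7 and 5.63-fold below AT3G09200, and AT3G13580 was 8.32 and 3.25-fold below AT2G01250. These 2 libraries are also the shallowest and the deepest. Over the 8 libraries the ratios of the 6 minor genes had an r with log2 depth of 0.79 to 0.91, and the size of a paralog gap varied with the library in which it was read.

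**Figure D3:**
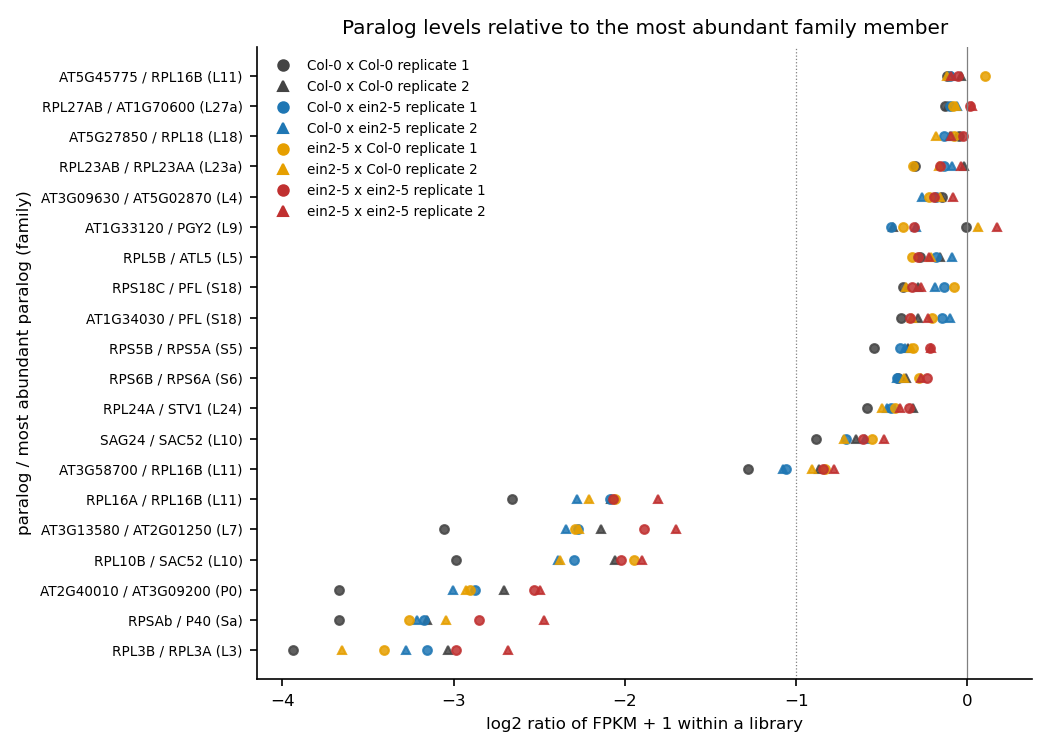
Log2 ratio of FPKM + 1 of each of 20 paralogs to the most abundant member of its family within a library, with colours for the 4 crosses, circles for replicate 1, triangles for replicate 2 and a dotted line at 2-fold. The 6 minor genes lie left of the dotted line in all 8 libraries, with replicate 1 of the wild-type cross farthest left for each.

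Ratios were then compared between the 4 libraries with a mutant mother and the 4 with a wild-type mother, and likewise for the father, which makes 20 tests for each parent. RPS5B to RPS5A was the only ratio whose libraries did not overlap by mother. It was -0.32 and -0.33 in the mutant-mother hybrid and -0.22 and -0.21 in the mutant cross, against -0.55 and -0.35 in the wild-type cross and -0.39 and -0.36 in the mutant-father hybrid. The means were -0.27 with a mutant and -0.41 with a wild-type mother, a difference of 0.14, at an unadjusted two-sided exact permutation p of 0.029, the smallest that 4 against 4 libraries can give. It carries no adjustment over the 20 ratios, no value with depth as a covariate was computed, and this ratio also had an r of 0.76 with log2 depth. No ratio separated libraries by father, where the smallest exact permutation p was 0.086.

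Paralogs in these families were 68.4 to 99.1% identical over the aligned coding sequence, with a median of 87.1% over 25 pairs. The longest run shared without a mismatch was 20 to 458 nt and had a median of 36 nt. In 6 pairs a run of 50 nt or more was shared, namely the L9 pair, the L4 pair, the L27a pair, SAC52 with SAG24, RPL10B with SAG24, and RPL16A with AT3G58700 at 113 nt. How the authors' counting split fragments from such runs is not given in the sources used here, so ratios within these 6 pairs are less certain. The S5 pair shared at most 38 nt, the L3 pair 26 nt and the Sa pair 31 nt.

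When both parents carried ein2-5, none of the 41 genes passed the test against the wild-type cross. The 6 minor genes were all higher in the mutant cross, and 34 of the 35 abundant ones were lower. RPSAb was higher by 0.46 ± 0.16 (log2, SE of the model), AT3G13580 by 0.43 ± 0.14, AT2G40010 by 0.34 ± 0.16 and RPL3B by 0.32 ± 0.16. RPL16A differed by 0.19 ± 0.15 and RPL10B by 0.18 ± 0.17. Of the abundant genes, AT1G70600 had the lowest estimate at -0.39 ± 0.28, followed by SAC52 at -0.37 ± 0.27. Limma with Benjamini-Hochberg adjustment over all 19719 genes called 0 of the 41, against 0.0101% of all genes, and the smallest adjusted p was 0.40 for AT3G13580. At an unadjusted p under 0.05 there were 2, RPSAb and AT3G13580, both higher, against 8.44% of all genes higher and 2.13% lower.

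In exactly the 6 minor genes both mutant-cross libraries lay above both wild-type-cross libraries, against 27.4% of all genes. For RPL10B the nearest libraries of the 2 sides almost touched, at 137.7 FPKM in the mutant cross and 136.8 in the wild-type cross. No listed gene lay lower without overlap, against 10.4% of all genes. The share among the 41 was therefore below the background in both directions. Set beside genes of like abundance, 27.5% of 2412 other genes with a mean between 61 and 145 FPKM were higher without overlap, and their median log2 change was 0.05, against 0.33 in the 6 minor genes. The median over all 41 was -0.25, with 95% intervals of single genes about ± 0.53 wide, while that of all genes was 0.12.

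The value for the abundant genes moved with single libraries of both crosses. Without replicate 1 of the wild-type cross the median over the 41 genes was 0.06 and 35 of 41 were higher. Without its replicate 2 the median was -0.55 and 35 were lower, 31 of them at an unadjusted p under 0.05, against 4.15% of all genes lower and 14.1% higher, and none was called. Leaving out replicate 1 of the mutant cross, the median was -0.43 with 35 lower, and without its replicate 2 it was -0.08 with 29 lower. With depth as a covariate the median was 0.00, with 23 higher and 18 lower, and with quantile normalization 20 were higher and 21 lower. That normalization moved the median of all genes from 0.12 to -0.03, and median-ratio scaling moved it to 0.02, with 6 listed genes higher and 35 lower. The 6 minor genes were all higher under each of these settings, with medians of 0.25 and 0.38 without the wild-type replicates, 0.23 and 0.41 without the mutant ones, 0.32 with depth as a covariate, 0.23 with quantile normalization and 0.22 with median-ratio scaling, and none was called under any of them. RPSAb was at 0.55 ± 0.18 without replicate 1 of the wild-type cross and at 0.36 ± 0.18 without its replicate 2. With depth as a covariate it was at 0.53 ± 0.16 (limma adjusted p of 0.26). Quantile normalization put RPSAb at 0.38 ± 0.18 and median-ratio scaling at 0.35 ± 0.18. Under median-ratio scaling no listed gene had an unadjusted limma p under 0.05, against 5.97% of all genes higher and 4.27% lower. Seed coat marker sums were also highest in the mutant cross, as given above, and their part in these values was not tested.

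**Figure D4:**
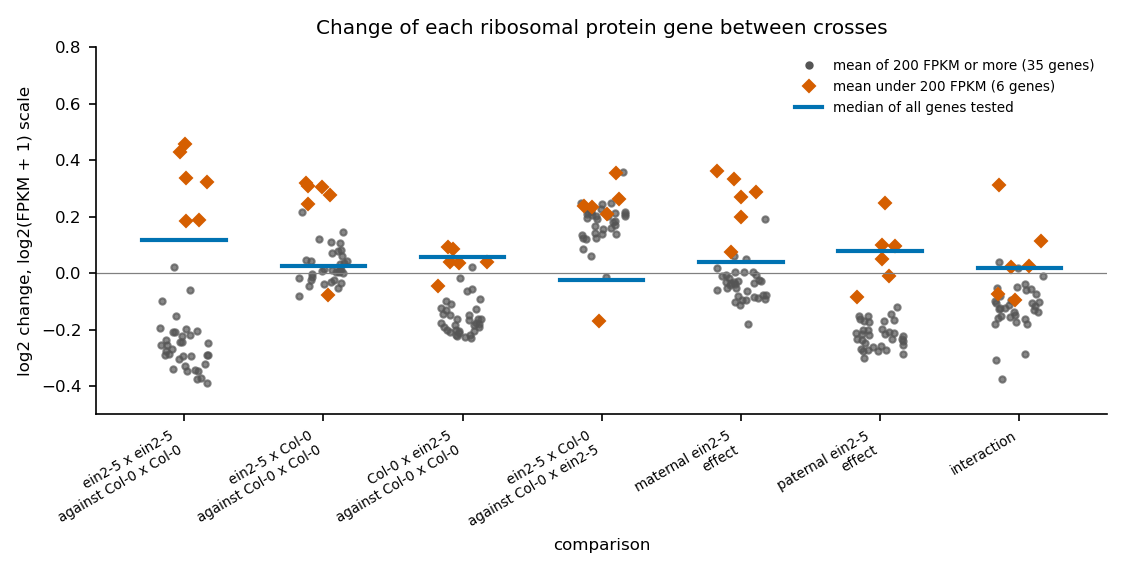
Log2 change of each of the 41 genes in the 7 comparisons, on the scale of log2(FPKM + 1), with orange diamonds for the 6 minor genes, grey points for the 35 abundant ones (spread sideways at random) and a blue bar at the median of all genes tested. In the mutant cross against the wild-type cross the 6 minor genes lie between 0.18 and 0.46 and all but 1 of the abundant ones below 0.

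The reciprocal crosses differ by design in which parent carried the mutation. The number of mutant copies in the endosperm and the genotype of the mother's own seed tissues differ with it. Parent of origin and these cannot be told apart here, nor parent of origin and copy number in the averages by mother and by father below. In the mutant-mother hybrid, 39 of the 41 genes were higher than in the mutant-father hybrid, with RPL3B and PGY2 as the exceptions. AT3G58700 differed most, by 0.36 ± 0.16, followed by RPL10B at 0.35 ± 0.17, PFL at 0.27 ± 0.23, RPSAb at 0.26 ± 0.16 and RPL18 at 0.25 ± 0.24. Limma called 0 of the 41 and 0 of all genes (0%), and no listed gene had an unadjusted p under 0.05, against 1.13% of all genes higher and 1.89% lower. The libraries did not overlap for 31 of the 41, all higher, against 16.1% of all genes higher and 19.4% lower. The same held for 49.6% of 679 other genes at the levels of the abundant ones and for 124 of 146 abundant genes for other ribosomal proteins. Both mutant-mother hybrid libraries were also shallower than both mutant-father hybrid libraries. The median over the 41 was 0.20 against -0.02 over all genes, 0.10 with depth as a covariate, and 0.05 with quantile normalization, where 31 were higher and 10 lower.

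Each reciprocal cross was also set against the wild-type cross, so these comparisons share their control libraries with each other and with the one above. In the mutant-mother hybrid the median over the 41 genes was 0.01, against 0.02 over all genes, with 27 higher and 14 lower. AT3G13580 was at 0.32 ± 0.14, RPL10B at 0.31 ± 0.17, RPSAb at 0.30 ± 0.16, AT2G40010 at 0.28 ± 0.16 and RPL16A at 0.25 ± 0.15. Libraries did not overlap for these 5 and AT3G58700, all higher, against 15% of all genes higher and 12.5% lower. Limma called none of the 41 and 0% of all genes, with 0 listed genes at an unadjusted p under 0.05, against 2.56% of all genes higher and 1.44% lower. In the mutant-father hybrid the median was -0.16, against 0.06, with 6 higher and 35 lower. No listed gene was without overlap in either direction, against 16.8% of all genes higher and 9.22% lower, and limma called none (0% of all genes). At an unadjusted p under 0.05 there were 0, against 2.18% of all genes higher and 0.74% lower. Without replicate 1 of the wild-type cross the medians were 0.35 and 0.15, and without its replicate 2 they were -0.28 and -0.47, so the choice of control library turned the sign of both. Median-ratio scaling gave 19 higher and 22 lower in the mutant-mother hybrid, and quantile normalization 15 higher and 26 lower in the mutant-father hybrid.

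Averaged over the father, a mutant mother went with higher values in all 6 minor genes and in 7 of the 35 abundant ones. RPSAb differed by 0.36 ± 0.11, AT3G13580 by 0.33 ± 0.10 and AT2G40010 by 0.29 ± 0.11. These 3 genes were higher in each library with a mutant mother than in each with a wild-type mother, against 2.26% of all genes higher and, with no listed gene, 1.19% lower. For AT3G13580 the 4 mutant-mother values were 121 to 143 FPKM and the other 4 were 92.5 to 114. For AT2G40010 they were 79.5 to 99.0 against 66.0 to 78.5, and for RPSAb 67.4 to 84.0 against 56.6 to 67.2, so in these 2 genes the nearest libraries of the 2 sides almost touched.

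The same 3 genes had an unadjusted p under 0.05, against 5.01% of all genes higher and 2.08% lower, and none was called, with adjusted limma p-values of 0.69 and 0% of all genes called. Without replicate 1 of the wild-type cross they were at 0.41 for RPSAb, 0.28 for AT3G13580 and 0.25 for AT2G40010, and with depth as a covariate at 0.39, 0.33 and 0.29. Without replicate 2 of the mutant-father hybrid, 0 of the 41 had an unadjusted p under 0.05. RPL10B at 0.27 ± 0.12 and RPL16A at 0.20 ± 0.11 overlapped between mothers. The median over the 41 genes was -0.03 against 0.04 over all genes, with 13 higher and 28 lower. Under quantile normalization 26 were higher and 15 lower, and with depth as a covariate 37 were higher and 4 lower. Of the 13 seed coat markers 12 were also higher with a mutant mother, against 56.7% of all genes. Their median was 0.47, and 5 had an unadjusted limma p under 0.05. Of the 9 endosperm markers 7 were higher, with a median of 0.42. The part of these markers in the maternal values was not tested.

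Averaged over the mother, a mutant father went with lower values in 37 of the 41 genes. The median was -0.21 against 0.08 over all genes, and AT1G70600 was lowest at -0.30 ± 0.20 and RPL3B highest at 0.25 ± 0.12. No listed gene separated the libraries by father, against 2.66% of all genes higher and 0.72% lower. Limma called 0 of the 41 and 0% of all genes, and 0 of the 41 had an unadjusted p under 0.05, against 5.05% of all genes higher and 1.03% lower. Without replicate 2 of the wild-type cross the median was -0.37, and 29 were lower at an unadjusted p under 0.05, against 3.84% of all genes lower and 10.5% higher, with none called. Without replicate 1 of the wild-type cross the median was -0.06, with depth as a covariate -0.03, and under quantile normalization -0.02 with 13 higher and 28 lower. Of the 13 seed coat markers all were higher with a mutant father, against 62.6% of all genes. Their median was 0.52, and their part was not tested. The libraries with a mutant father include the deepest library and none of the 3 shallowest.

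The interaction, which asks whether the effect of a mutant father depends on the mother, was coded as the father's effect under a mutant minus that under a wild-type mother and had a median of -0.11 over the 41 genes and 0.02 over all genes. It was below 0 for 35 of the 41, and for 17 of the 41 under quantile normalization. RPL3B had the highest estimate at 0.31 ± 0.23 and PGY2 the lowest at -0.38 ± 0.41. Limma called 0 of the 41 and 0% of all genes, and 0 had an unadjusted p under 0.05, against 2.04% of all genes higher and 1.32% lower. Without replicate 1 of the wild-type cross the median was -0.45, and without its replicate 2 it was 0.21.

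Other genes of translation were read from lists chosen with earlier results known, and limma called no gene of any of them in the 7 comparisons. Of 175 genes for other cytosolic ribosomal proteins 170 were tested, and 152 were lower in the mutant cross than in the wild-type cross, with a median of -0.23. The 3 most abundant were AT5G18380, AT4G15000 and EMB2296, with means of 804, 777 and 746 FPKM. Here too the counts differed by abundance. Of 24 genes of this list under 200 FPKM, 14 (58.3%) were higher with a median of 0.18. Of all genes tested, 61.6% were higher with a median of 0.12, so this count was near the background. Among the 24, 5 (20.8%) had an unadjusted limma p under 0.05, all higher, against 8.44% of all genes higher and 2.13% lower. Of the 146 at or above 200 FPKM, 4 were higher and the median was -0.25. For the maternal effect 21 of these 24 were higher, with a median of 0.20, against 42 of the 146 and 56.7% of all genes. Leaving out replicate 1 of the wild-type cross, 18 of the 24 and 132 of the 146 were higher in the mutant cross, with medians of 0.24 and 0.07, and all 146 were higher for the maternal effect.

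The elongation factors, which bring transfer RNA and move the ribosome along the message, were all 11 lower in the mutant cross than in the wild-type cross, with a median of -0.25 and 0 at an unadjusted p under 0.05. The median was 0.03 with 6 higher and 5 lower once replicate 1 of the wild-type cross was left out, and with depth as a covariate it was -0.03 with 8 lower. The most abundant, AT5G60390 of the EF-1 alpha family, was at 1175 and 652 FPKM in the wild-type cross and 773 and 572 in the mutant cross. The next were AT5G19510 and eEF-1Bb1, with means of 514 and 447 FPKM.

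Ribosome biogenesis factors, which process ribosomal RNA and assemble the subunits, were higher in the mutant cross in 30 of 32 genes, with a median of 0.27, and 7 had an unadjusted limma p under 0.05, all higher. Over all genes 61.6% were higher, with a median of 0.12, and 8.44% were higher at an unadjusted p under 0.05. The seed coat and endosperm markers had medians of 0.96 and 0.74 in the same comparison, and their part in the list's values was not tested. The list's median was 0.33, again with 30 higher, without replicate 1 of the wild-type cross. Quantile normalization gave a median of 0.13 with 32 higher. There 2 genes had an unadjusted limma p under 0.05, both higher, against 5.15% of all genes higher. With depth as a covariate the median was 0.33 with 31 higher. In that fit 11 had an unadjusted limma p under 0.05, all higher, against 7.42% of all genes higher. The 3 most abundant members lay near 0. FIB1, a fibrillarin, the enzyme that methylates ribosomal RNA, was at -0.03 ± 0.20, FIB2 at 0.01 ± 0.16 and AT3G03920 at -0.10 ± 0.17. The median deviation of the list by library was 0.25 and 0.13 in the mutant cross and -0.01 and -0.15 in the wild-type cross. Its r with log2 depth was 0.04 over the 8 libraries, and -0.47 over 6 libraries without the shallowest and the deepest.

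Plastid ribosomal protein genes, which serve a separate ribosome, had a median of -0.07 in the mutant cross against the wild-type cross, with 23 of 29 lower, and 0.02 with 16 higher without replicate 1 of the wild-type cross. In the mutant-mother hybrid against the mutant-father hybrid all 29 were higher, with a median of 0.22, and of 0.18 with depth as a covariate. AT3G54210 and EMB3105, genes of this list, had means of 347 and 301 FPKM. Of 8 genes of the TOR pathway and ribosomal stress, 4 were higher and 4 lower in the mutant cross, with a median of 0.01. LST8-2, a TOR complex subunit, averaged 98.6 FPKM, NAC082, a transcription factor of the ribosomal stress response, 96.7 and the S6 kinase gene PK1 65.4.

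Both promoter elements were then counted in the 250 bases upstream of each annotated gene start in TAIR10.1. A site II element was present for 26 of the 41 genes, or 63.4%, against 19.2% of 27443 protein-coding nuclear genes with such a window. The telo box was present for 4 genes, AT5G45775, RPL27AB, P40 and RPS5A, or 9.76%, against 2.61%. Of the 6 minor genes, 4 had a site II element and 0 had a telo box, and 14 of the 41 genes had neither. Among the 6, RPL3B, RPL10B, RPL16A and AT2G40010 held site II elements, while AT3G13580 and RPSAb did not. A match is a description of these letters, and TGGGCC and its reverse complement can overlap, in which case both were counted.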

How the data were processed

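Endosperm RNA of 8 libraries was sequenced, and the authors deposited FPKM values per gene for all of them in a single table. Per the submitters' processing notes, TopHat2 2.1.1, SAMtools 1.5, Cufflinks 2.2.1 and the TAIR10 genome were used, with options not given in the sources used here. Genes with at least 1 FPKM in at least 2 libraries were kept, 19719 of 34133. Values were set to log2(FPKM + 1), so changes of low genes are understated, and fitted over all 8 libraries with limma 3.58.1 in R 4.3.3 (group means of the crosses, moderated with a variance trend, two-sided, Benjamini-Hochberg over all genes tested). Residual degrees of freedom were 4, with 3.72 added by moderation. Called means an adjusted p under 0.05. The scripts were tested on simulated data with known changes. Paralog ratios within libraries were compared by an exact two-sided permutation test of 4 against 4 libraries. Depth was estimated from the steps of low FPKM values, and fragments per gene follow from it. Its precision and the splitting of fragments between paralogs limit the values, since the authors' FPKM gives no counts.

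The listed genes and all other lists were chosen with earlier results of these data known. Named with values per library were the highest and the lowest gene by mean FPKM in each family, any called gene, and, for every comparison and direction, the 5 largest changes at most among genes without overlap between libraries. From each other list the 3 genes with the highest mean were named, apart from 1 gene that is not reported here. Names, coordinates and sequences came from the RefSeq annotation of TAIR10.1, which held 31416 of the table's identifiers, while the values rest on TAIR10. Whether the replicate numbers pair libraries across crosses is not stated in the labels, and the main fit did not pair them. Alternatives were another pseudocount, other filters, other scalings, no variance trend, a replicate block, fits of the 2 crosses compared alone, each library left out in turn, and depth as a covariate, the last chosen after seeing the data.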

Additional observations from a re-analysis of the deposited data

How the results depend on the processing

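No listed gene was called in any of the 7 comparisons under any setting, and 6 paralogs were at least 2-fold below their top gene under all of those that were run on ratios. Over all genes, calls in the mutant cross against the wild-type cross numbered 2, and 0 to 33 across settings, with 33 without replicate 2 of the wild-type cross. The median change of the listed genes minus that of all genes was -0.365 (log2) in that comparison and 0.024 under quantile normalization. With each library left out in turn it ranged from -0.763 to 0.035, and the extremes came without the wild-type cross replicates 2 and 1, respectively. The leave-one-out ranges were -0.369 to 0.409 for the mutant-mother hybrid against the wild-type cross, -0.616 to 0.18 for the mutant-father hybrid against the wild-type cross, and 0.14 to 0.303 for the mutant-mother hybrid against the mutant-father hybrid. They were -0.267 to 0.136 for the maternal effect, -0.503 to -0.078 for the paternal effect and -0.58 to 0.256 for the interaction. The cause was not tested. With depth as a covariate, chosen after seeing the data, the 7 differences lay between -0.047 and 0.098. The replicate block left the median difference at -0.365 and called 0 listed genes. Deviations of same-numbered libraries correlated at 0.00866 to 0.136 between crosses. With 2 libraries per cross such values cannot show whether the numbers mark a shared batch, on which the labels are silent. With the block, 4 listed genes had an unadjusted limma p under 0.05 for the maternal effect. All 4 were higher, against 5.88% of all genes higher and 3.08% lower at that threshold. Fits of only 2 crosses cannot give the maternal, paternal and interaction effects. Depth limits the minor genes most, since RPL3B rested on an estimated 43 fragments in the shallowest case.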
